A study of Mus musculus with 70 samples.

Results

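The cytosolic ribosomal protein genes were described in the dorsal hippocampus of adult male mice after different patterns of voluntary exercise. All genes of the expression table whose symbol is a cytosolic Rps or Rpl name, together with Rplp0, Rplp1, Rplp2 and Rpsa, were taken, without symbols of pseudogenes and of the S6 kinases. This gave 84 of the 24346 genes listed, 33 of the small and 51 of the large ribosomal subunit, by a rule that uses only names. Of these, 81 had a mean of at least 1 FPKM (fragments relative to transcript length and to all mapped fragments) and entered the tests with 12994 genes in all. The other 3 were Rpl10l, listed at 0 in all 70 libraries, Rpl39l, with a mean of 0.111 FPKM, and Rpl3l, with a mean of 0.169 FPKM.

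The study asked which genes in the hippocampus follow exercise patterns that let a weak training session be remembered. It had 7 groups of 10 C57BL/6J mice, housed singly and 12 weeks old per the methods, with 5 mice of each group in each of 2 harvest cohorts. A group is named by its days of initial wheel running, of sedentary delay and of reactivating running: 14-14-0, 14-7-0, 14-7-2, 0-0-2 and 14-0-0, with sedentary mice (0-0-0) that had no wheel. All 6 of these groups had a short acquisition session of the object location memory task (OLM) 1 h before the tissue was taken, and the home cage group (0-0-0) had neither running nor training. The labels do not say what a replicate number marks, and per the paper the distance run in the initial days varied between groups.

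Each ribosome joins a small subunit, which reads the mRNA, to a large one, which makes the peptide bond, and most of its proteins occur in equal number, so cells keep the genes of both subunits in step. Most of these mRNAs begin with a C followed by a run of pyrimidines, the 5′ terminal oligopyrimidine (TOP) motif, through which the kinase complex mTORC1 and the RNA-binding protein Larp1 set how much of the mRNA is translated. In neurons, ribosomal proteins are made both in the cell body and near synapses, and new translation is needed for lasting memory.

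Runs of pyrimidines at the annotated starts were counted in the reference sequence. The count takes bases on both sides of the start and allows a T at it, so it is looser than the TOP motif. RefSeq promoter windows on build GRCm38.p6 were matched for 63 of the 84 genes, and in 20 of them (31.7%) the annotated start lay in an unbroken run of at least 5 C and T on the gene's strand, against 11.8% of 27025 genes with a window. The windows below hold 15 bases before the annotated start and 15 from it, for the gene with the longest run and for genes whose values are given below. Capitals mark the run that holds the start, or the start base alone in Rps12, Rpsa and Rpl26, where no run of at least 5 holds it.
Rpl7a (chr2:26910792-26910821, plus strand): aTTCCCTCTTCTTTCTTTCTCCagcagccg
Rpl15 (chr14:18270972-18271001, minus strand): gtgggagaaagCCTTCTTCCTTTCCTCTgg
Rps6 (chr4:86857353-86857382, minus strand): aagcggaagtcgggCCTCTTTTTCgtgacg
Rps24 (chr14:24490663-24490692, plus strand): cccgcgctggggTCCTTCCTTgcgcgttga
Rpl31 (chr1:39367836-39367865, plus strand): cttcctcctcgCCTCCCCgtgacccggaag
Rps12 (chr10:23787195-23787224, minus strand): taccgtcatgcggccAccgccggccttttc
Rpsa (chr9:120127751-120127780, plus strand): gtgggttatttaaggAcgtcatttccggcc
Rpl26 (chr11:68901551-68901580, plus strand): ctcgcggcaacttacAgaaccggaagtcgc
The run was 21 bases long in Rpl7a, 17 in Rpl15, 10 in Rps6, 9 in Rps24 and 7 in Rpl31. Within the 300-base windows (250 before the start), CCGGAAG on either strand was found in 26 of the 63 genes (41.3%) and in 9.93% of all genes with a window. AAGATGG was in 10 (15.9%) against 7.28%, and GGGCGG in 39 (61.9%) against 38.2%. These are matches of letters and not binding sites.

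Ribosomal protein mRNA was abundant in every library. The 84 genes made up 5.3% to 8.53% of the summed FPKM of a library (median 6.39% over 70 libraries). Among the 81 tested genes, the mean level ran from 18.5 FPKM for Rpl7l1 to 964 FPKM for Rplp1, with a median of 298 FPKM, and 73 had at least 100 FPKM. FPKM are levels per length, which allows a comparison between genes. It is uncertain for genes that share sequence with others, as described below. The highest means were those of Rplp1, a protein of the stalk that recruits elongation factors, with 964 ± 363 FPKM (SD, n = 70), and of Rpl41, the smallest ribosomal protein, with 915 ± 198. Rpl38 (898 ± 227) and Rps29 (874 ± 287) followed within less than 1 SD. The lowest were Rpl7l1 (18.5 ± 1.49) and Rps4l (19.1 ± 7.94), whose difference was also within their spread. The 8 genes under 60 FPKM also included Rpl30, Rpl26, Rps27l, Rps15a, Rps27 and Rpl22.

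**Figure D1:**
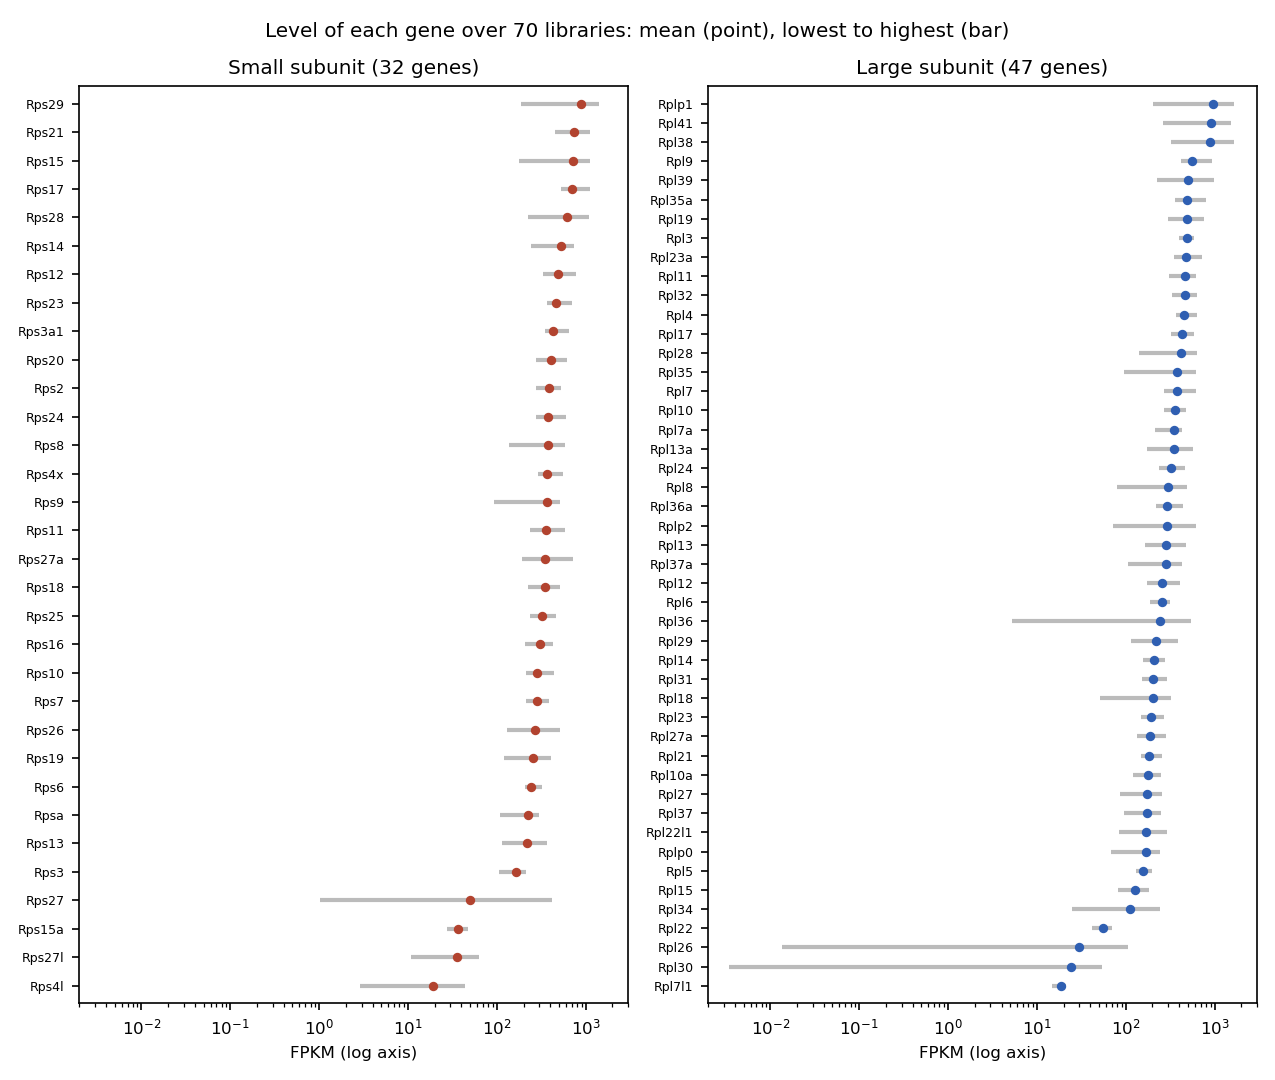
Level of 79 of the 81 tested ribosomal protein genes in FPKM on a log axis, small subunit left and large subunit right, with the mean of 70 libraries as a point and the lowest to the highest library as a bar. Most means lie between 100 and 964 FPKM, and the bars of Rps27, Rpl36, Rpl26 and Rpl30 are the widest.

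The genes also shared sequence with other genes. The transcripts of 80 tested members were found in the GENCODE M21 annotation (build GRCm38), and the median member shared 47.6% of its 50-base windows, the read length, with transcripts of other genes. The median of the 12027 tested genes found was 0%. More than 10% of the windows was shared in 72 of the 80 members (90%) against 18.6% of all tested genes. Per the methods, only reads with 1 location in the genome were kept. Rps27rt, a copy of Rps27 described below, shared 91.1% of its windows and was still listed at 614 to 1630 FPKM. Whether the listed values follow that rule was not tested, so a level is uncertain where copies exist.

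Rps27, a small subunit protein with a zinc finger, was the clearest case. Its coding sequence of 252 bases without the stop codon (chr3:90212728-90213615, minus strand) was identical at every base to that of Rps27rt (chr9:114982456-114982707, minus strand), a retrogene in 1 uninterrupted coding block that the naming rule leaves out. That of the paralogue Rps27l (chr9:66946175-66949354, plus strand) had the same length and differed at 60 bases. Both sequences are printed because the levels below turn on how alike they are, and capitals in the second mark the bases that differ from Rps27.
Rps27 and Rps27rt: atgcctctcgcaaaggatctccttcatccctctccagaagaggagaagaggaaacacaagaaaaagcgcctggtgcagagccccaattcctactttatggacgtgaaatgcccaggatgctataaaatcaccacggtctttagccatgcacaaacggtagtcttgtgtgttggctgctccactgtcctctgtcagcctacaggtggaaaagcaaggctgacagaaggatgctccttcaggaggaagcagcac
Rps27l: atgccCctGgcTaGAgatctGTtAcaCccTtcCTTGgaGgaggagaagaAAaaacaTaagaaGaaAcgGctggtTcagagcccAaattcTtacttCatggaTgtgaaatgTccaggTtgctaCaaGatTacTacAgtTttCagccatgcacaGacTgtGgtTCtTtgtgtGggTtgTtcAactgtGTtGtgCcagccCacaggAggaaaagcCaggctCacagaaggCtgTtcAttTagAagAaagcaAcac
All 203 windows of 50 bases in the Rps27 coding sequence occurred in Rps27rt and 0 in Rps27l, where the longest identical run was 11 bases.

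The values of Rps27 lay in 2 separate ranges, which were seen in the values and are given without a test. It was listed at 1.02 to 7.26 FPKM in 49 libraries and at 59.5 to 421 FPKM in 21, with none between. The higher range was reached in 4 home cage, 2 sedentary, 3 14-0-0, 3 14-7-0, 5 14-7-2, 2 14-14-0 and 2 0-0-2 libraries, and in 9 of 35 libraries of cohort 1 and 12 of 35 of cohort 2. Rps27rt was listed at 614 to 1630 FPKM in every library, with a median of 946 where Rps27 was in the higher range and of 984 where it was in the lower. The sum of both genes ran from 680 to 1840 FPKM. Its SD on the log2 scale was 0.33, against 2.57 for Rps27 alone and 0.34 for Rps27rt alone. Rps27rt made up most of the sum, so adding Rps27 changed the spread little. Rps27 was not called in any comparison, and a fold change of its listed values compares shares of libraries in the higher range. Rps27l had 35.8 ± 9.60 FPKM (SD, n = 70) and ranged from 10.7 to 63.3.

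**Figure D2:**
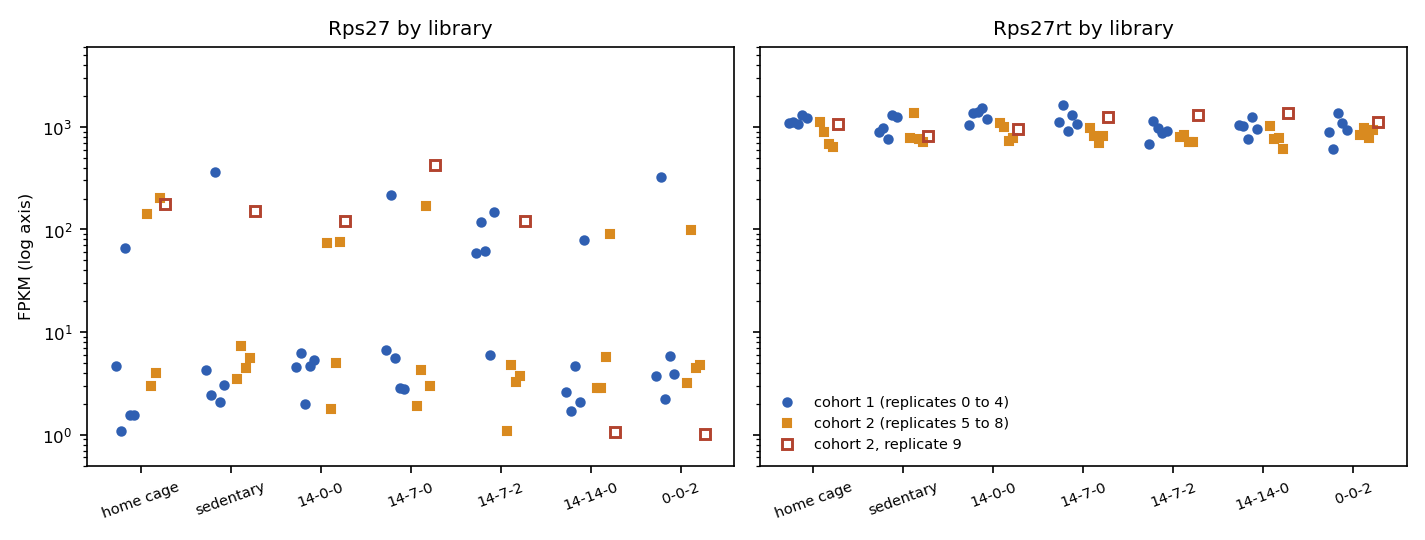
FPKM of Rps27 (left) and Rps27rt (right) in each of 70 libraries by group, on a log axis, with circles for harvest cohort 1, filled squares for cohort 2 and open squares for replicate 9 of cohort 2. Rps27 lies either between 1.02 and 7.26 or between 59.5 and 421 FPKM in every group, while Rps27rt lies between 614 and 1630.

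Other paralogues were unequal in level. Rpl22l1 exceeded Rpl22, the protein it can replace in the large subunit, with 169 ± 46.9 against 56.1 ± 5.20 FPKM (SD, n = 70), and its lowest library (84.3) lay above the highest of Rpl22 (69.4). Of the 50-base windows of Rpl22l1, 65.6% occurred in other genes, against 5.19% for Rpl22. Rps4l, listed at 2.89 to 43.3 FPKM, is annotated as a transcribed processed pseudogene, while Rps4x on the X chromosome had 371 ± 43.1 FPKM. Rpl7l1, linked to ribosome assembly, had 14.9 to 21.1 FPKM and Rpl7 271 to 612. The ranges of these pairs did not overlap. Rpl3l, the striated muscle form of Rpl3, reached 0.654 FPKM at most, with 483 ± 44.2 for Rpl3. Rpl39l and Rpl10l, known from the testis, reached 0.517 FPKM and 0, with 496 ± 141 for Rpl39 and 361 ± 41.7 for Rpl10. None of the paralogues named here was called in a comparison of groups, and the estimate for Rpl22l1 was above 0 in all 6 comparisons with sedentary, from 0.071 in 0-0-2 to 0.32 in 14-7-2 (log2 scale), with unadjusted p from 0.0868 to 0.712. These 6 comparisons share the sedentary libraries.

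Some libraries stood apart. Sedentary replicate 6 and replicate 4 held 8.53% and 7.9% of their FPKM in ribosomal protein genes, among the 3 highest shares. In sedentary replicate 6, 12 markers of pyramidal and granule neurons summed to 473 FPKM, against a median of 2230 over 70 libraries, and 10 oligodendrocyte markers to 7530 FPKM, the highest of all, so its makeup went against that of the other hippocampal libraries. The 14-7-0 replicate 4 had a relative depth of 0.0363, estimated from the smallest steps of low genes with sedentary replicate 0 as 1, and Rpl26 (0.0137 FPKM) and Rpl30 (0.00346) were at their lowest there. No marker gene of the 10 cell type and region lists was at 0 in every library. The sedentary libraries enter all 6 comparisons with sedentary, and values without them are given below for the members called and for the medians.

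Few ribosomal protein genes differed from sedentary in any group. A call here means p below 0.05 without adjustment in limma's moderated test of log2(FPKM + 0.1), a scale that understates fold changes of low genes. Of 81 members, 1 was called in 14-0-0 (background over all 12994 genes 9.15%), 1 in 14-7-2 (4.39%) and 1 in 14-14-0 (4.95%). In 14-7-0 (3.26%), in 0-0-2 (2.37%) and in home cage mice (2.3%) the count was 0, so the share of members called was below the background in all 6. The Cyber-T test, a regularised test that the methods name, called 1 member in 14-0-0 (background 3.7%), 1 in 0-0-2 (0.954%), 2 in home cage mice (1.25%) and 0 in 14-7-0 (0.924%), 14-7-2 (1.51%) and 14-14-0 (2.34%). No gene of the 12994 passed Benjamini-Hochberg adjustment in these comparisons. In bulk tissue, fewer cells of a type and less RNA per cell cannot be told apart.

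In 14-0-0, with 14 days of running and no delay, Rpl26, a large subunit protein near the peptide tunnel, was higher by 0.86 ± 0.40 on the log2 scale (SE, p = 0.0440, adjusted p = 0.531, limma). It ran from 14.2 to 105 FPKM (median 32.5) in 14-0-0 and from 5.86 to 38.3 (median 21.7) in sedentary, and 8 of 10 running mice lay above the sedentary median, with overlap between the groups. Without sedentary replicates 4 and 6 the difference was 0.61 (p = 0.153, limma), and it was 1.22 in cohort 1 and 0.51 in cohort 2. The call was also lost without sedentary replicate 6 alone (p = 0.0781), in the joint fit of all groups (p = 0.101), with no minimum mean (p = 0.052) and with a choroid plexus score as a covariate (p = 0.111, all limma). Rpl38, of the large subunit, was at 387 to 1230 FPKM (median 763) against 775 to 1670 (median 815), a difference of -0.39 (p = 0.0664, limma). Rpl15 was at 110 to 182 FPKM (median 136) against 110 to 138 (median 120), a difference of 0.16 (p = 0.0680, limma). In this comparison 12 of 12 choroid plexus markers were called higher, with a median log2 difference of 2.54, and their part in the values of ribosomal protein genes was tested only by adding their score as a covariate, which gave a members' median of 0.013 in place of -0.046.

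In 14-7-0, with 7 sedentary days after the running, the estimates lay evenly about 0. The 3 members of smallest p were Rpl4, with a difference of 0.13 (412 to 640 FPKM against 399 to 491, p = 0.0760), Rpl34, with 0.47 (33.4 to 171 against 24.7 to 175, p = 0.184), and Rps4l, with -0.28 (9.62 to 29.1 against 9.36 to 43.3, p = 0.264, all limma). All 3 ranges overlapped. Without 14-7-0 replicate 4 the differences were 0.13 (p = 0.0831), 0.45 (p = 0.233) and -0.35 (p = 0.174, all limma).

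In 14-7-2, where 2 days of running followed the delay, Rps12 was lower. It ran from 340 to 480 FPKM (median 463) against 358 to 782 (median 505) in sedentary, and none of the 10 libraries lay above the sedentary median. The difference was -0.24 ± 0.11 (SE, p = 0.0477, adjusted p = 0.847, limma), and without sedentary replicates 4 and 6 it was -0.11 (p = 0.213, limma). It was -0.22 in cohort 1 and -0.25 in cohort 2. The call was also lost without sedentary replicate 6 alone (p = 0.0936), with median-ratio scaling (p = 0.0525), with the cohort as a covariate (p = 0.0514), with no minimum mean (p = 0.0512), with the choroid plexus score (p = 0.0968, all limma) and with Cyber-T (p = 0.0765). Rpl21 ran from 150 to 203 FPKM against 168 to 208 (difference -0.11, p = 0.0522, limma). Rpsa, also known as a laminin receptor, ran from 108 to 241 against 190 to 298 (difference -0.23, p = 0.0764, limma).

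In 14-14-0, after 14 days of delay, Rpsa was lower by 0.21 on the log2 scale (SE 0.090, p = 0.0317, adjusted p = 0.974, limma). It was at 160 to 248 FPKM (median 208) against 190 to 298 (median 239) in sedentary, 2 of 10 libraries lay above the sedentary median, and without sedentary replicates 4 and 6 the difference was -0.13 (p = 0.131, limma). It was -0.26 in cohort 1 and -0.15 in cohort 2. With Cyber-T its p was 0.0875. Rplp1 was next (414 to 1320 against 475 to 1650 FPKM, difference -0.44, p = 0.0816, limma), and without sedentary replicates 4 and 6 its difference was -0.27 (p = 0.272, limma). All 12 choroid plexus markers were called higher here too, and with their score as a covariate the difference of Rpsa was -0.15 (p = 0.183, limma).

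In 0-0-2, with 2 days of running alone, no member was called, and in home cage mice, which had no training, none either. Whether home cage mice had the handling and habituation that came before training is not stated. The training session may thus not be all that differs from sedentary. The smallest p in 0-0-2 was that of Rpl26 (difference 0.63, p = 0.0824), then Rpl30 (0.28, p = 0.108) and Rps12 (-0.19, p = 0.14, all limma). In home cage, Rps4l differed by -0.46 (p = 0.0721), Rpl26 by 0.62 (p = 0.0855) and Rpl22l1 by 0.24 (p = 0.122, all limma). Both estimates of Rpl26 were above 0, and both comparisons share the same sedentary mice.

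The members' median difference from sedentary was small throughout. On the log2 scale 14-7-2 had a median of -0.090, 14-14-0 of -0.062, 0-0-2 of -0.057, 14-0-0 of -0.046, home cage of -0.0037 and 14-7-0 of 0.0026, where the medians of all tested genes lay between -0.010 and 0.0083. The estimate was below 0 for 69 of 81 members in 14-7-2 and for 68 in 0-0-2. Over all 12994 genes it was below 0 for 6516 and 6082. In cohort 1 and cohort 2 alone they were -0.055 and -0.14 in 14-7-2, -0.092 and -0.034 in 14-14-0, -0.053 and -0.046 in 0-0-2, -0.10 and 0.0085 in 14-0-0, 0.030 and -0.0091 in home cage, and 0.0012 and 0.044 in 14-7-0. Sedentary replicates 4 and 6 were chosen after their high shares were seen. Leaving them out thus raises, by construction, the difference from sedentary of members that were high in them. Rpl26 was low in both (8.66 and 9.74 FPKM), and its difference in 14-0-0 fell without them. High libraries of other groups, such as home cage replicate 5 (7.99%) and 14-0-0 replicate 5 (7.51%), were kept. Without sedentary replicates 4 and 6 the median was -0.019 for 14-7-2 (50 of 81 estimates below 0), 0.0084 for 14-14-0, 0.023 for 0-0-2 (27 below 0), 0.029 for 14-0-0, 0.069 for home cage and 0.083 for 14-7-0.

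The estimates of both subunits were alike. The difference between the small and the large subunit medians was between -0.026 (14-0-0) and 0.016 (14-7-0) on the log2 scale over the 6 comparisons with sedentary. In 14-7-2 the medians were -0.093 for the 33 small and -0.090 for the 48 large subunit genes, with 29 and 40 estimates below 0. The ratio of the summed FPKM of the small to that of the large subunit was 0.778 ± 0.022 (SD, n = 70) with a range of 0.736 to 0.823. Both sums hold only genes of the naming rule, so Rps27rt (992 ± 236 FPKM) is not in that of the small subunit. Its group means ran from 0.768 ± 0.015 in 14-0-0 to 0.792 ± 0.026 in 14-7-0 (SD, n = 10). It was 0.791 ± 0.018 in home cage and 0.776 ± 0.023 in sedentary. Single libraries overlapped, with 0.749 to 0.798 in 14-0-0 and 0.742 to 0.823 in 14-7-0. These SDs are those of single libraries, and the differences between the group means were not tested.

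**Figure D3:**
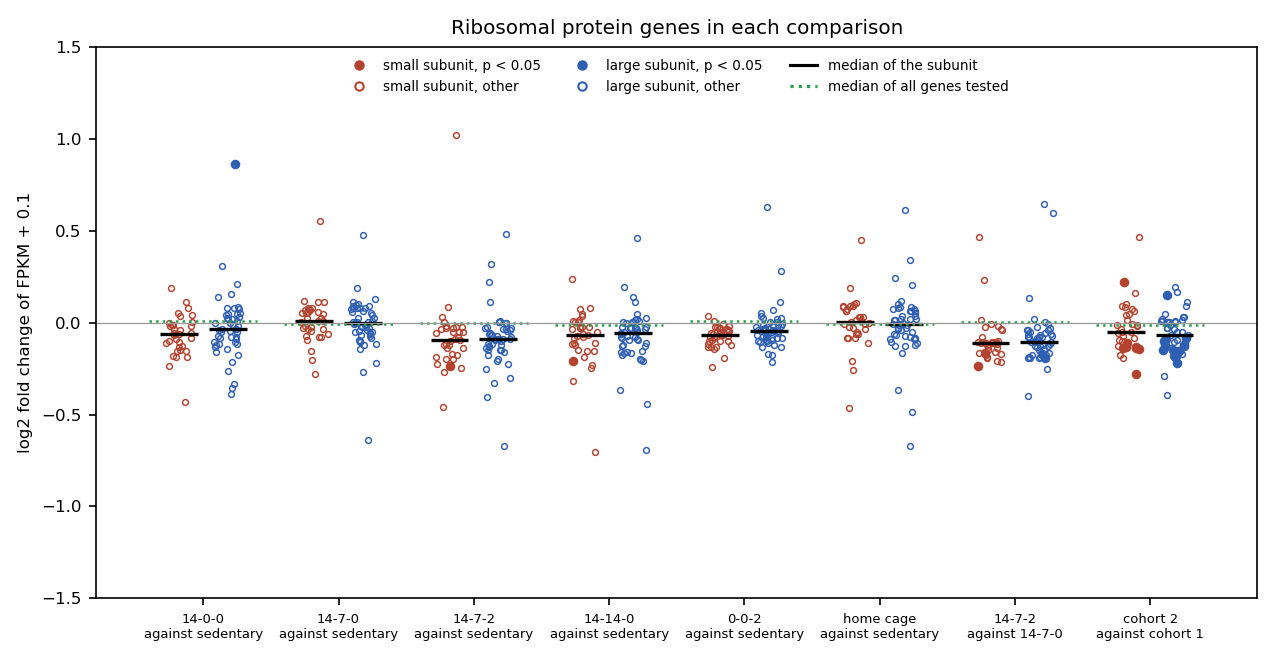
log2 fold change of FPKM + 0.1 for each tested ribosomal protein gene in 8 comparisons, small subunit in red and large subunit in blue, filled where the unadjusted p was under 0.05, with the median of each subunit as a black bar and that of all genes tested as a dotted line. The subunit medians lie between -0.11 and 0.011, and cohort 2 against cohort 1 has 23 filled points.

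The group shares overlapped as well. Ribosomal protein genes held 6.66% ± 0.888 (SD, n = 10) of summed FPKM in sedentary and 6.64% ± 0.706 in home cage mice. The share was 6.68% ± 0.401 in 14-7-0, 6.4% ± 0.532 in 0-0-2, 6.3% ± 0.408 in 14-14-0, 6.29% ± 0.548 in 14-0-0 and 6.23% ± 0.538 in 14-7-2. The highest mean, in 14-7-0, and the lowest, in 14-7-2, differed by more than the SD of 14-7-0 and less than that of 14-7-2. Without replicates 4 and 6 sedentary had 6.27% ± 0.343 (SD, n = 8), below the means of 14-0-0, 14-14-0 and 0-0-2, and without replicate 4 the share of 14-7-0 was 6.65% ± 0.413 (SD, n = 9).

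**Figure D4:**
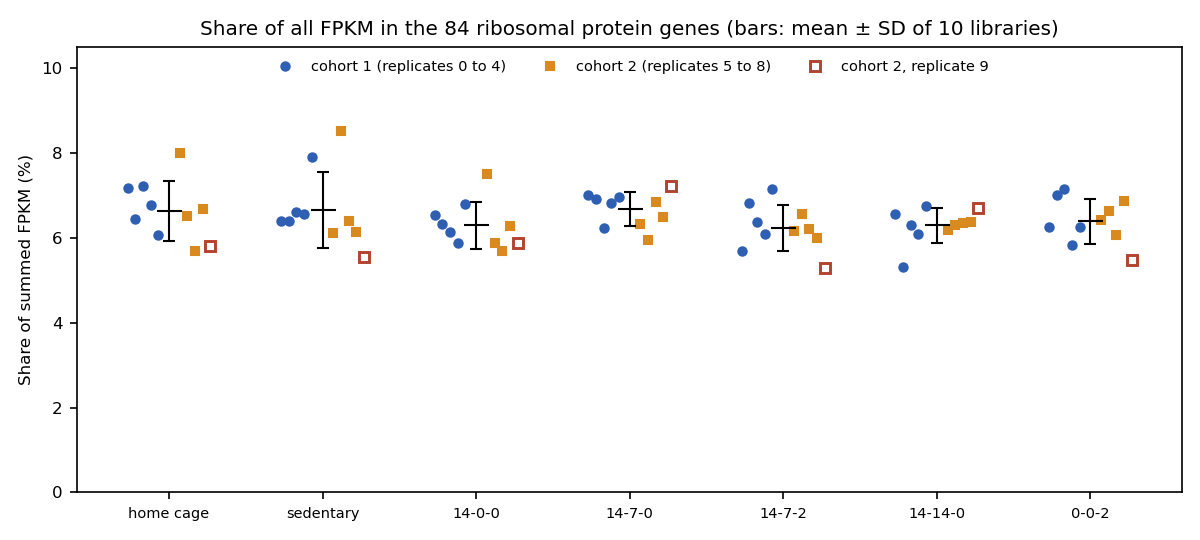
Percent of summed FPKM in the 84 ribosomal protein genes for each library by group, with circles for harvest cohort 1, filled squares for cohort 2, open squares for replicate 9, and bars for the mean ± SD of 10 libraries. The groups overlap, and sedentary holds the highest library (8.53%) and 14-7-2 the lowest (5.3%).

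Reactivating running was also compared with the same delay without it, with no sedentary library involved. In 14-7-2 against 14-7-0, 4 members were called, all lower (background 5.39% in either direction and 3.36% lower), and none passed adjustment. Rps12 was at 340 to 480 FPKM (median 463) in 14-7-2 and at 471 to 546 (median 502) in 14-7-0, so the ranges overlapped only at their ends, and its difference was -0.17 ± 0.057 (SE, p = 0.00877, adjusted p = 0.660, limma). Within cohorts it was -0.13 and -0.20. Rpl21 was at 150 to 203 FPKM (median 174) against 172 to 253 (median 192), a difference of -0.17 (p = 0.0161, limma). Rps24, of the small subunit, was at 276 to 437 (median 349) against 335 to 600 (median 387), a difference of -0.24 (p = 0.0405, limma). Rpl31, near the exit of the peptide tunnel, was at 163 to 222 (median 186) against 174 to 292 (median 212), a difference of -0.19 (p = 0.0460, limma). The members' median was -0.11 with 73 of 81 estimates below 0 (6274 of all 12994 genes), and it was -0.064 in cohort 1 and -0.15 in cohort 2. Without replicate 9 of both groups the members' median was -0.050 with 57 below 0. In that fit 2 members were called, and the share of all genes called in it is given in the last section. The Cyber-T test called 0 members (background 2.19%). In the joint fit of all groups the p of Rps12 was 0.108, and without replicate 9 that of Rps24 was 0.0634 (both limma). Without 14-7-0 replicate 4 the differences were -0.16 for Rps12 (p = 0.0140), -0.19 for Rpl21 (p = 0.00961) and -0.26 for Rps24 (p = 0.0347, all limma). Of 10 oligodendrocyte markers 6 were called lower in the same comparison, and their part was not tested.

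Rps6 and Rplp0 were called in no comparison. Rps6, whose phosphorylation by the S6 kinases is a common readout of mTORC1, had group means from 231 ± 17.1 (14-7-2) to 250 ± 25.1 FPKM (home cage, SD, n = 10) and the second lowest spread of the tested members (SD 0.12 on the log2 scale over 70 libraries). Its differences from sedentary lay between -0.080 and 0.031 with p from 0.139 to 0.694 (limma). Rplp0, a protein of the stalk and a usual reference gene for RT-qPCR, had group means from 155 ± 23.5 (14-14-0) to 176 ± 39.3 (sedentary) and a wider spread (SD 0.32), with p from 0.188 to 0.904 (limma).

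More members were called between harvest cohorts than between groups, with 35 libraries on each side in place of 10. The members' median difference was -0.053 on the log2 scale, smaller in size than in 14-7-2, 14-14-0 and 0-0-2. With the group in the model and 35 libraries in each cohort, 23 of 81 members were called (28.4%), 2 higher and 21 lower in cohort 2, where the background was 11.9% in either direction, 3.58% higher and 8.29% lower. After adjustment 2 members passed, among 76 genes (0.585%). Rpl23 had a median of 176 FPKM (148 to 255) in cohort 2 and 200 (155 to 273) in cohort 1, a difference of -0.16 ± 0.038 (SE, adjusted p = 0.0347, limma), lower in all 7 groups. Rpl21 had 175 (150 to 215) against 192 (150 to 253), a difference of -0.12 ± 0.032 (SE, adjusted p = 0.0470, limma), also lower in all 7 groups. Rpl17 had 392 (326 to 590) against 453 (343 to 587), a difference of -0.15 (adjusted p = 0.0576, limma). The 2 called higher were Rps13 (0.22) and Rpl13 (0.15). The ranges of the cohorts overlapped for every gene named.

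The cohort difference held across subunits and groups with exceptions. In the small subunit 8 of 33 were called and in the large 15 of 48, with medians of -0.049 and -0.069 and -0.015 for all genes. Within groups the members' median was below 0 in 6 of 7, from -0.011 in 14-14-0 to -0.14 in 14-7-2, and it was 0.032 in 14-0-0. Without replicate 9, 31 members were called, 10 higher and 21 lower, while the background rose to 27.9%. For Rpl23, Rpl21 and Rpl17 the unadjusted p was under 0.05 in all 10 alternative settings run for the cohorts. The limma test of whether a group's difference from sedentary changed between cohorts called 0 members after adjustment and 2 at an unadjusted p under 0.05, Rpl30 and Rps24 in 14-0-0 (background 2.79%). In 14-7-0 (0.362%), 14-7-2 (2.42%), 14-14-0 (2.03%), 0-0-2 (1.48%) and home cage (0.423%) it called 0, and likewise for the difference of 14-7-2 from 14-7-0 (3.7%).

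One replicate number shared a pattern over the groups. The 7 libraries numbered 9, 1 of each group and all of cohort 2, had low values of many members whose transcripts are rich in G and C. The pattern was seen in the values first and is described without a test. Rpl36 was at 45.6 FPKM in sedentary replicate 9, 42.7 in 14-14-0, 28.3 in 14-0-0, 24.0 in home cage, 18.5 in 14-7-0, 13.6 in 0-0-2 and 5.19 in 14-7-2, each the lowest of its group. The other 63 libraries had a median of 281 FPKM, with a lowest value of 39.3, so the ranges overlapped by little. Rpl35 was likewise lowest in replicate 9 of all 7 groups, with 96.3 to 256 FPKM against 266 to 613 elsewhere, so its ranges did not overlap. Rplp1 had 202 to 522 (median 423) against 414 to 1670 (median 1020), and Rps29 189 to 456 (median 338) against 300 to 1410 (median 989). Rplp0, the reference gene, had 68.6 to 131 (median 110) against 120 to 246 (median 178). The GC content was 60.8% for Rpl36, 56.7% for Rpl35 and 57.3% for Rplp1. It was 53.1% for Rps29 and 52.9% for Rplp0, nearer to the median of 51.6% over 80 tested members.

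Not all members were low in these libraries. The mean log2 difference of the 7 from the other 63 was below 0 for 47 members and above 0 for 34, from -3.50 (Rpl36) to 2.28 (Rps27, whose values jump between its ranges). It was 0.66 for Rpl39, 0.63 for Rps27a, a fusion with ubiquitin, and 0.60 for Rpl22l1. The median was -0.56 for the 26 members of highest GC content (53.6% to 62.4% of the transcript) and 0.18 for the 26 of lowest (40.6% to 48.7%). Some members of each set went the other way. Among them were Rpl34 (0.58) and Rpl38 (0.31) of the highest and Rps26 (-0.80) and Rpl37 (-0.44) of the lowest. Over 80 members the rank correlation of the difference with GC content was -0.56 and over 12027 tested genes -0.52, both across genes, which share the libraries and are not replicates. In each library, the rank correlation of the members' deviation from their means with GC content ran from -0.60 to 0.60. It was below 0 in 7 of 7 libraries numbered 9 and in 21 of all 70. Other numbers reached like values. In 14-14-0 replicate 1 had -0.60 and replicate 9 -0.50, and in home cage replicate 4 had -0.57 and replicate 9 -0.56. In 14-0-0 replicate 2 had -0.53 and replicate 9 -0.46, and in sedentary replicate 3 had -0.394 and replicate 9 -0.388. Over all tested genes the median of the rank correlations was -0.39 for number 1, -0.34 for number 3 and -0.28 for number 9.

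**Figure D5:**
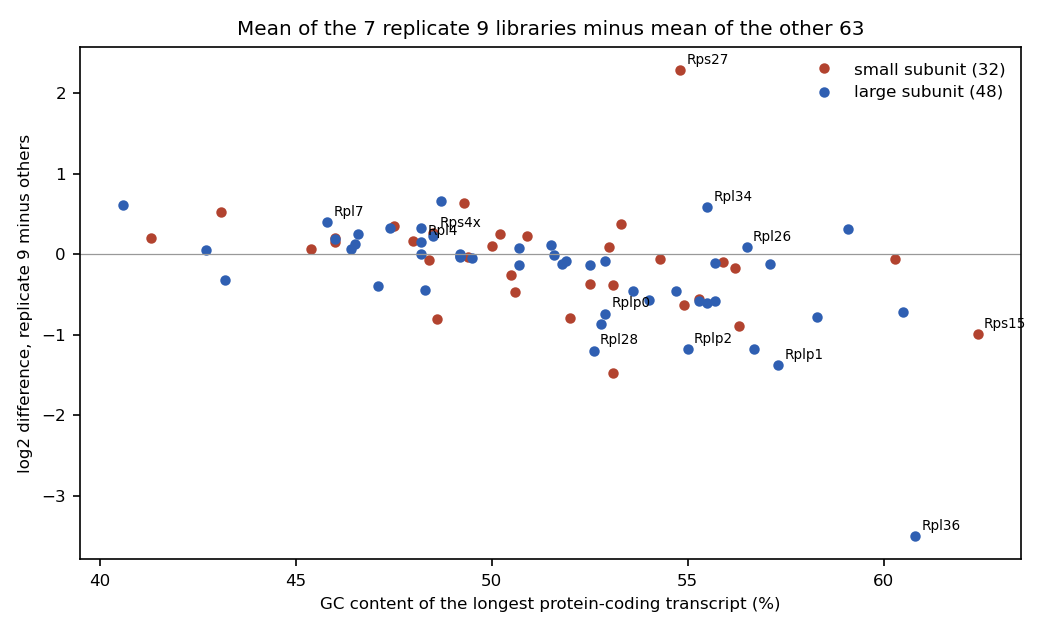
Mean log2(FPKM + 0.1) of the 7 replicate 9 libraries minus that of the other 63 (vertical) against the GC content of the longest protein-coding transcript (horizontal, percent) for 80 members, small subunit in red and large subunit in blue. Members below 48.7% GC lie mostly above 0, and Rpl36 lies lowest at -3.50.

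Members of high and low GC content also differed in their estimates against sedentary. In home cage the median difference from sedentary was 0.064 for the 26 members of lowest and -0.067 for the 26 of highest GC content, and in 14-7-0 it was 0.066 and -0.049. In 14-7-2 both were below 0, at -0.052 and -0.14. These comparisons share the sedentary libraries. In sedentary replicates 4 and 6 the median deviation of the highest-GC members exceeded that of the lowest by 0.41 and 0.40, more than in any other library. The medians of these sets were not computed without them. Against 14-7-0, 14-7-2 had like medians for both sets, at -0.12 and -0.11. With the GC slope of each library as a covariate, an alternative chosen after seeing the data, the members' median was -0.080 in 14-7-2 and -0.11 in 14-7-2 against 14-7-0, and the cohorts had 35 called members, 33 lower, with a background of 16.2%.

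Genes that work with the ribosome were counted in lists. Outside the naming rule, Fau, made as a fusion with a ubiquitin-like protein, and Gnb2l1 (Rack1), a scaffold on the small subunit, were called in no comparison. Of 77 mitochondrial ribosomal protein genes, 0 to 3 were called in each comparison of groups, and the median lay between -0.049 and 0.015. Between cohorts 14 were called (18.2%, background 11.9%), 7 in each direction, with Mrpl41 (-0.16, adjusted p = 0.00908) and Mrps5 (-0.20, adjusted p = 0.0165, both limma) past adjustment. Of 7 ribosomal protein pseudogenes 3 were tested, and 1 was called higher in each of 14-0-0, 14-7-2 and 14-14-0.

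Lists of translation and its control were counted in the same way. Of 18 other TOP mRNAs, 3 were called higher in 14-0-0 (16.7%, background 9.15%) and 3 in 14-7-0 (16.7%, background 3.26%), in both cases Eif3e (0.23 and 0.20 on the log2 scale) and Eif4b (0.11 and 0.15), initiation factors, and Pabpc1 (0.14 and 0.16), the poly(A) binding protein. In 14-7-2, 1 was called higher (Eif4b, 5.56% of the list, background 4.39%), and in 0-0-2, 1 lower (Eef1d, 5.56%, background 2.37%). In 14-7-2 against 14-7-0, 0 were called and 17 of 18 estimates were below 0, with a median of -0.054. Of 58 initiation and elongation factors, 6 were called higher in 14-0-0, 4 higher and 2 lower in 14-7-0 (10.3% in each) and at most 4 (6.9%, in 14-14-0) elsewhere. Of 51 genes of ribosome biogenesis and RNA polymerase I, at most 3 (5.88%, in 14-14-0) were called in a comparison of groups. Ebna1bp2 was called lower in 14-0-0 (-0.12), 14-7-2 (-0.13), 14-14-0 (-0.16) and home cage (-0.11), which share sedentary mice. Of 34 genes of mTORC1 and TOP control, 3 were called higher in 14-0-0 (8.82%) and 4 were called in 14-14-0 (11.8%, background 4.95%), 1 of them higher. Rragd, a GTPase that recruits mTORC1 to lysosomes, was called higher in 14-0-0 (0.28, p = 0.00126, adjusted p = 0.279, limma), in 14-7-2 (0.28, p = 0.00314), in 14-14-0 (0.17, p = 0.0253) and in 14-7-2 against 14-7-0 (0.17, p = 0.0421, all limma), and the first 3 share the sedentary mice. Of 71 nuclear genes of oxidative phosphorylation, 0 to 3 (at most 4.23%) were called in each comparison of groups. In these comparisons of groups no call passed adjustment. Between cohorts, 4 of the other TOP mRNAs (22.2%), 12 factors (20.7%), 14 biogenesis genes (27.5%), 7 of mTORC1 and TOP control (20.6%) and 16 of oxidative phosphorylation (22.5%) were called, against the background of 11.9%, and Eif3f (0.15, adjusted p = 0.0470, limma), an initiation factor subunit, passed adjustment.

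Cell type markers moved in some comparisons, and their part in the ribosomal protein values was not tested beyond the choroid plexus score. Against sedentary, choroid plexus markers were also called higher in home cage (6 of 12). Of 8 meningeal markers, 5 were called higher in 14-0-0, 6 in 14-14-0 and 5 in home cage, and of 10 oligodendrocyte markers 6 were called lower in 0-0-2. Over the 70 libraries the choroid plexus sum ran from 25.2 to 22000 FPKM and the oligodendrocyte sum from 1450 to 7530. Of the lists for astrocytes, microglia, endothelium, pyramidal and granule neurons, inhibitory neurons, thalamus and red blood cells, at most 3 markers were called in any comparison.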

How the data were processed

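RNA from dorsal hippocampus of 70 mice was sequenced as single reads of 50 bases, 1 library per mouse. Per the methods, reads were aligned with ELAND v2e and Bowtie, those with a unique location and at most 2 mismatches were kept, and the Tuxedo protocol gave the FPKM values that the authors deposited, 1 per gene and library. The submitters' processing notes name Bowtie, Cuffnorm and mm10. Their versions, the annotation and the scaling by Cuffnorm are not given in the sources used here.

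Read counts were not recovered from FPKM, and the reads per sequencing sample in a supplement of the study stand under codes that were not matched to these labels and are not used here, so no interval for counting error was computed. Relative depths of libraries came from the smallest steps between values of low genes. Values were taken as log2(FPKM + 0.1), and genes with a mean under 1 FPKM over the 70 libraries were left out (11352 genes). Groups were taken from the labels, and each comparison was fitted with limma 3.58.1 in R 4.3.3 on the libraries of its 2 groups, or, for the cohorts, on all libraries with the group as a term. Calls were made at p below 0.05 before adjustment. Adjusted p-values are those of Benjamini and Hochberg over the 12994 genes. The p-values measure the spread between single mice of a group. Alternatives were a pseudocount of 1, other minimum means, scaling by the median ratio, a joint fit, the cohort or a choroid plexus score as a covariate, the replicate number as a block, Cyber-T, each cohort alone, and fits without libraries that stood apart. Leaving out sedentary replicates 4 and 6, leaving out replicate 9, and the GC slope were added after seeing the data. The fit was tested on simulated data.

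The members and the gene lists were chosen with earlier results of these data known. Named in full were the 3 members of smallest p in each comparison, members called in at least 2, the paralogue pairs, the 2 highest and 2 lowest in level, Rps6 and Rplp0. Some genes that these rules name are not reported here. For other lists at most 3 genes of smallest p were named. GC content and shared windows came from the longest protein-coding transcript in GENCODE M21, and promoters from RefSeq on GRCm38.p6. Python 3.11.15, scipy 1.17.1 and matplotlib 3.10.9 were used for these and for the figures.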

Additional observations from a re-analysis of the deposited data

Results flagged for a closer look

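In groups of 10, a library was marked when its gap to the nearest other library was above Dixon's critical share of the range of the group. This was applied to the share of summed FPKM, the members' median deviation and the FPKM of members named in full, in 196 sets of group and quantity. It marked 27, where chance alone marks about 1 in 20 (9.8 here) if the sets are independent. These sets share libraries and are not independent, so the numbers do not test chance.

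Of the marks, 18 were values of libraries numbered 9. In 14-7-2 replicate 9, Rpsa was at 108 FPKM, Rplp0 at 68.6, Rplp1 at 202, Rpl15 at 80.8, Rpl30 at 8.21, Rps12 at 340 and Rps4l at 2.89, each the lowest of its group, while Rpl7 was the highest at 538. In 0-0-2 replicate 9, Rpsa was at 152 FPKM, Rplp0 at 92.6, Rplp1 at 325 and Rpl30 at 11.6, all lowest. In 14-7-0 replicate 9, Rpl4 was at 640 FPKM, Rpl7 at 612, Rps4x at 562 and Rps6 at 321, all highest. In 14-14-0 replicate 9, Rpl4 was at 546 FPKM and Rps24 at 471, both highest.

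In 14-7-0 replicate 4, the library of lowest relative depth, Rpl26 was at 0.0137 FPKM, Rpl30 at 0.00346 and Rps27l at 10.7, all lowest. The remaining marks were Rpl34 at 33.4 FPKM in 14-7-0 replicate 8, Rpl38 at 322 in 0-0-2 replicate 3, Rpl17 at 494 in 0-0-2 replicate 2, Rpl7l1 at 20.7 in sedentary replicate 6 and at 15.4 in 14-0-0 replicate 1, and a share of 5.31% in 14-14-0 replicate 1. What the replicate number marks was not tested.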

How the results depend on the processing

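The spread between libraries is wider than each median of the members, so it cannot serve to show that a median held, and without sedentary replicates 4 and 6 the medians turned in 14-14-0 (-0.062 to 0.0084), 0-0-2 (-0.057 to 0.023), 14-0-0 (-0.046 to 0.029) and home cage (-0.0037 to 0.069). Of 345 values for named members 275 kept their direction and side of the threshold, 38 passed it newly, 32 lost it and 0 turned. Counts of called members were small and 50 of 119 moved by over 1.5 times, and for these the cause was not tested. Shares in brackets are those of all genes called in the same fit. In 14-0-0 (1 called) the count was 0 with no minimum mean, 2 in the joint fit, 4 with the cohort as a covariate (10.1%), 9 in cohort 1 alone (7.94%), 0 without sedentary replicate 6, 0 without sedentary replicates 4 and 6 and 2 without replicate 9. In 14-7-0 (0) it was 1 in the joint fit and 4 without sedentary replicates 4 and 6 (3.93%). In 14-7-2 (1) it was 0 with median-ratio scaling, with the cohort as a covariate, with Cyber-T, in cohort 1, in cohort 2, without sedentary replicate 6 and without sedentary replicates 4 and 6, 2 in the joint fit and with the GC slope, and 4 with the choroid plexus score (3.65%) and without replicate 9 (4.91%). In 14-14-0 (1) it was 0 with Cyber-T, in cohort 2, with the choroid plexus score and without sedentary replicate 6, 3 without sedentary replicates 4 and 6 (11%), 5 with the GC slope (8.64%) and 6 without replicate 9 (5.69%). In 0-0-2 (0) it was 1 with Cyber-T, in cohort 1, with the choroid plexus score and with the GC slope, and 2 without replicate 9. In home cage (0) it was 1 in cohort 2 and without replicate 9, 2 with Cyber-T and with the GC slope, and 5 without sedentary replicates 4 and 6 (4.93%). In 14-7-2 against 14-7-0 (4) it was 0 with Cyber-T and in cohort 1, 1 in cohort 2, 2 without replicate 9 (7.7%), and 7 in the joint fit (5.36%) and with the choroid plexus score (5.19%). Between cohorts (23) it was 35 with the GC slope (16.2%).

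With the replicate number as a block 5 members were called in 14-14-0 (7.04%), 4 in 14-0-0 (14.5%), 3 each in 14-7-2 (5.87%) and 0-0-2 (2.78%), 2 in home cage mice (4.33%) and 1 in 14-7-0. Same-numbered libraries correlated with a median between -0.058 and 0.14, at most 5 of 10 pairs passed 0.1 and at most 2 of 10 libraries correlated best with their own number, so by this measure they were not treated as pairs. What a number marks is not known, and the 7 libraries numbered 9 had a like pattern of GC content (rank correlation of the members from -0.59 to -0.39), while the 7 numbered 8 had the opposite sign (0.25 to 0.55). Without read counts, the precision of low values such as those of Rpl26, Rpl30 and Rps4l cannot be given. FPKM are relative within a library, so a shift of all mRNA is not visible.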
